A study of Drosophila melanogaster with 9 samples.

Results

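The glutathione transferase genes of Drosophila were followed in 3 populations of wing imaginal disc cells. The members were all genes whose symbol on the array begins with Gst, a class letter and a number, which gave 34 of the 11982 genes measured. A gene with several probe sets was read from the one whose mean signal on the 9 arrays was highest. They fell into 11 genes of class D (delta), 13 of class E (epsilon), 3 of class O (omega), 1 of class S (sigma), 4 of class T (theta) and 2 of class Z (zeta). GstE8 has no probe set of its own in the table used and was not analysed here. The discs, the larval epithelial sacs that form the adult wing, came from w1118 larvae about 8 days old. In all 3 populations the larvae carried the en-gal4 driver, the transgenes for p35, for a dsRNA form of asp and for RFP that it controls, and an MMP1-GFP reporter. The driver acts in the posterior compartment, so p35 (a viral caspase inhibitor), the dsRNA against asp (which encodes a spindle pole protein) and the red fluorescent protein RFP are made there. Flow sorting gave delaminating cells (RFP-positive, MMP1-GFP-positive), posterior cells (RFP-positive, MMP1-GFP-negative) and anterior cells (RFP-negative, MMP1-GFP-negative), with 3 samples of each that the series' design text calls biological replicates. Anterior cells came from the same kind of disc and differ from the others in compartment as well as in transgene expression.

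Glutathione transferases of these classes are cytosolic enzymes that join the tripeptide glutathione to reactive, electrophilic molecules. Joining makes such molecules more soluble and prepares them for export from the cell. The delta and epsilon classes expanded in insects, lie mostly in gene clusters, and include enzymes of insecticide and lipid peroxide detoxification, whereas zeta and omega enzymes have narrower metabolic or thiol transfer roles. In flies several delta and epsilon genes are induced by oxidants through CncC, the counterpart of mammalian Nrf2, and a GstD1 reporter is a common readout of that response.

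All values were log2 RMA signals on 1 scale per probe set, so signals are compared between groups for a gene and not between genes. Array medians lay between 7.48 and 7.57 over all probe sets. Over the genes tested they lay between 7.86 and 7.94, but at 7.66 in anterior replicate 3. Anterior replicate 3 stood apart, with correlations of 0.889 to 0.915 with the other arrays, against 0.943 to 0.987 among the other 8. The compartment labels were borne out by en, whose mean signal was 10.43 ± 0.53 in delaminating, 10.54 ± 0.09 in posterior and 7.16 ± 0.31 in anterior cells (SD, n = 3 arrays per group). The targeted gene asp was not analysed here. The arrays' lower quartiles lay between 6.05 and 6.36, and signals below them are not shown to be above background. GstD2 and GstD5 lay below the lower quartile on 7 of the 9 arrays, GstD6 and GstE5 on 2, and GstD11, GstE6 and GstE10 on 1. The other 27 members lay above it on every array. Fewer cells of a type and less RNA per cell cannot be told apart in such bulk samples.

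All members called in the main fit, without the alternative settings given below, lie in the delta and epsilon gene clusters and were higher in delaminating cells. In delaminating against anterior cells 6 of the 34 members were called higher and 0 lower by limma's moderated test, at a Benjamini-Hochberg adjusted p under 0.05 over all genes. That is 17.6% of the members, against 3.82% of all genes called in either direction and 2.4% called higher. The 6 were GstE1, GstE3, GstE6, GstE7, GstE9 and GstD3. In delaminating against posterior cells GstD6 alone was called higher, which is 2.94% of the members against 0.801% of all genes, and 0 were lower. In posterior against anterior cells limma called 0 of 34 members, with 0.576% of all genes called, and 6 of the 34 members had an unadjusted p under 0.05, all of them higher, where 717 of the 11982 genes were higher and 433 lower at that threshold. These comparisons share groups, so their values are given side by side and are not independent.

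The family's median log2 difference was 0.45 in delaminating against anterior cells, where the median of all genes was 0.05, with 27 of 34 members and 56.2% of all genes above 0. It was 0.25 in delaminating against posterior cells, with 24 of 34 members and 49.5% of all genes above 0, where all genes had a median of -0.0031. For posterior against anterior cells it was 0.20, with 26 of 34 members and 60.7% of all genes above 0, and all genes had 0.09. With arrays centred on their medians the posterior against anterior medians were 0.09 for the family, with 23 of 34 above 0, and -0.02 for all genes, a shift of -0.11 for every gene. Groups that did not overlap were counted as well. In delaminating against anterior cells 16 members had every delaminating value higher and 1 had every one lower, where 13.2% and 8.05% of all genes did. In delaminating against posterior cells 10 were apart and higher and 2 apart and lower, where all genes gave 10.7% and 11.5%. Between posterior and anterior cells 9 were apart and higher and 0 apart and lower, with 11.9% and 6.47% for all genes.

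**Figure D1:**
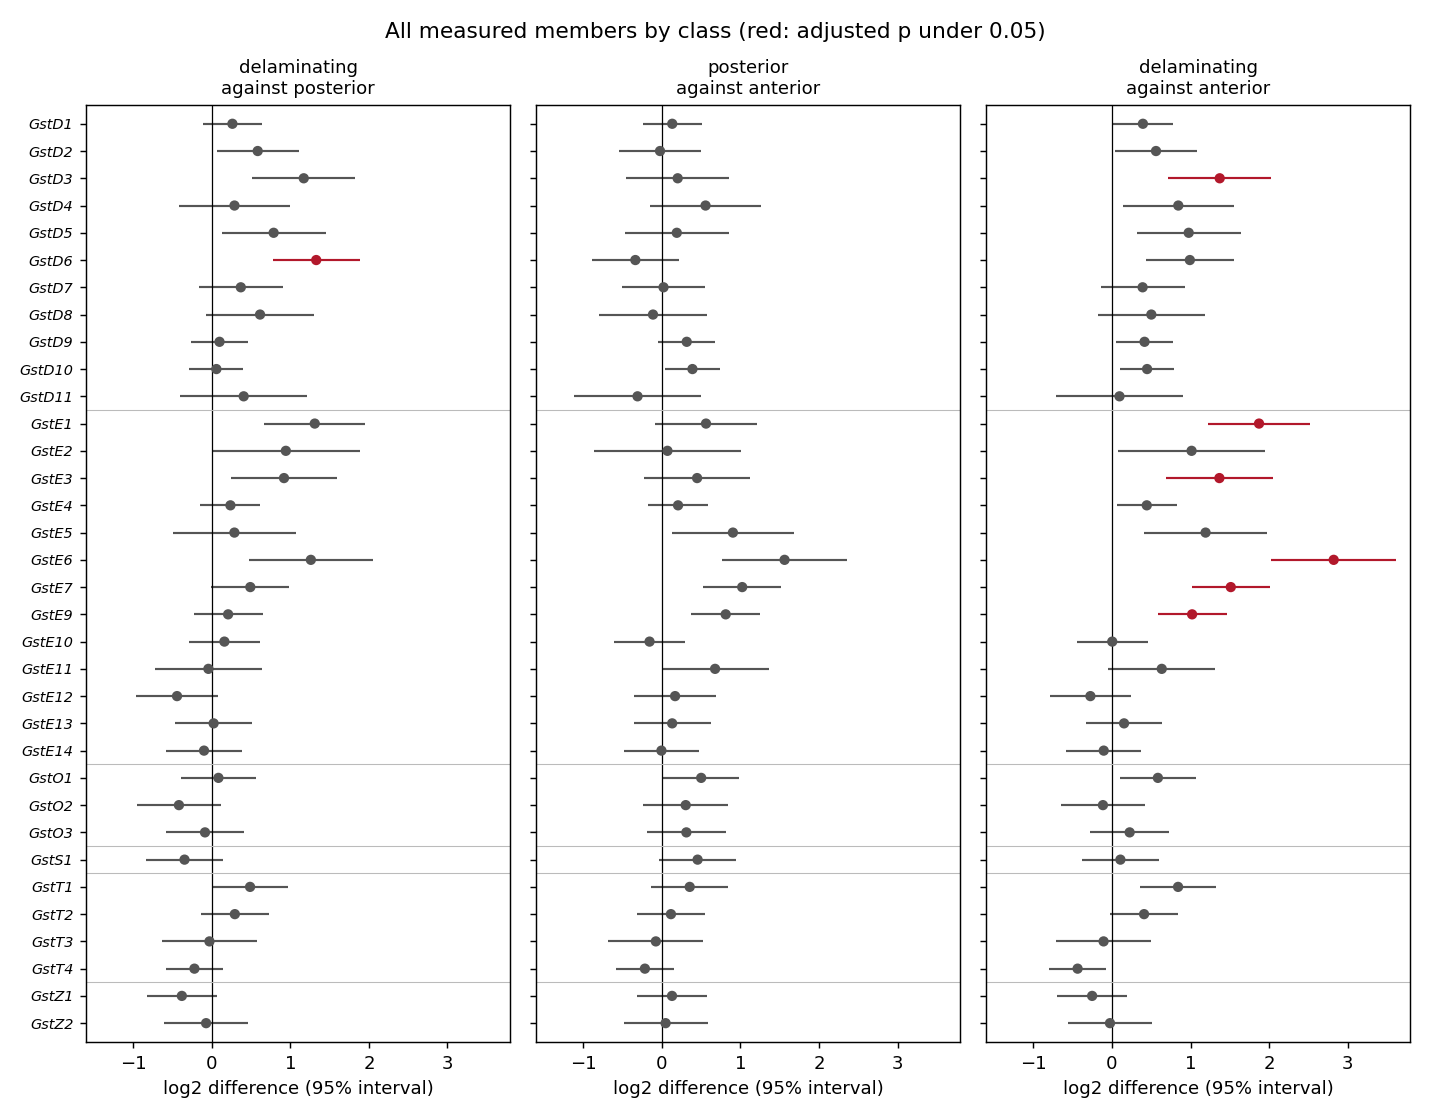
Log2 difference of each of the 34 members (points) with its 95% interval (lines) in the 3 comparisons, ordered by class, with red for an adjusted p under 0.05. Red points appear in classes D and E alone, with 6 in delaminating against anterior cells, 1 in delaminating against posterior cells and 0 in posterior against anterior cells.

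Class E gave 5 of the 7 members called in any comparison, and all 5 lie in 1 uninterrupted run of 10 epsilon genes on chromosome arm 2R in the RefSeq gene order, of which 9 were measured. GstE6, an epsilon enzyme, had the largest difference of the family. Its signal was 9.75, 9.76 and 10.02 in delaminating cells, 8.43, 8.37 and 8.94 in posterior cells, and 7.83, 7.03 and 6.20 in anterior cells. The 3 groups were fully separate, with delaminating cells highest and anterior cells lowest. GstE6 was 7.07-fold higher in delaminating than in anterior cells (log2 difference 2.82 ± 0.35 SE, n = 3 arrays per group, limma adjusted p = 0.00235). Its difference was 1.26 ± 0.35 in delaminating against posterior cells (limma adjusted p = 0.203) and 1.56 ± 0.35 in posterior against anterior cells (adjusted p = 0.127). The value of 6.20 in anterior replicate 3 was below that array's lower quartile. Without that array the difference from anterior cells was 2.41 (adjusted p = 0.00171), and the difference between delaminating and posterior cells, itself the same, was called (adjusted p = 0.0304). Without anterior replicate 1 the difference between posterior and anterior cells was 1.97 and was called (adjusted p = 0.0202).

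GstE7, the next gene along the run, had signals of 8.80, 8.48 and 8.68 in delaminating cells, 7.88, 7.98 and 8.63 in posterior cells, and 7.35, 7.02 and 7.06 in anterior cells. Anterior cells were below both others without overlap, and posterior replicate 3 reached into the delaminating range. GstE7 was 2.85-fold higher in delaminating than in anterior cells (1.51 ± 0.22 SE, limma adjusted p = 0.00517). Posterior cells differed from anterior cells by 1.02 ± 0.22 (adjusted p = 0.109). GstE9, at the end of the run, had 8.15, 8.65 and 8.48 in delaminating cells, 8.12, 8.50 and 8.04 in posterior cells, and 7.24, 7.49 and 7.50 in anterior cells. Delaminating and posterior cells overlapped, and both were above anterior cells. It was 2.03-fold higher in delaminating than in anterior cells (1.02 ± 0.20 SE, limma adjusted p = 0.0204), with a difference of 0.81 ± 0.20 between posterior and anterior cells (adjusted p = 0.155). The second probe set of GstE9, whose mean signal of 5.24 is below the arrays' lower quartiles, had 1.02 ± 0.27 in delaminating against anterior cells. It was not called (limma adjusted p = 0.0778 over all probe sets with 1 symbol).

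GstE1 and GstE3 lie near the other end of the run. GstE1 had signals of 11.67, 11.07 and 11.99 in delaminating cells, 9.97, 10.31 and 10.52 in posterior cells, and 9.97, 9.93 and 9.21 in anterior cells. Delaminating cells were well above both others, and posterior and anterior cells were apart only narrowly, since posterior replicate 1 and anterior replicate 1 have the same value at this rounding. GstE1 was 3.66-fold higher in delaminating than in anterior cells (1.87 ± 0.29 SE, limma adjusted p = 0.00646). Against posterior cells its difference was 1.31 ± 0.29 (adjusted p = 0.0885), which was called without anterior replicate 3 (adjusted p = 0.027). GstE3 had 9.21, 8.76 and 9.77 in delaminating cells, 8.13, 8.38 and 8.47 in posterior cells, and 8.31, 8.00 and 7.33 in anterior cells. Posterior and anterior cells overlapped below the delaminating ones. It was 2.58-fold higher in delaminating than in anterior cells (1.37 ± 0.30 SE, limma adjusted p = 0.0371), and its difference from posterior cells was 0.92 ± 0.30 (adjusted p = 0.293).

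**Figure D2:**
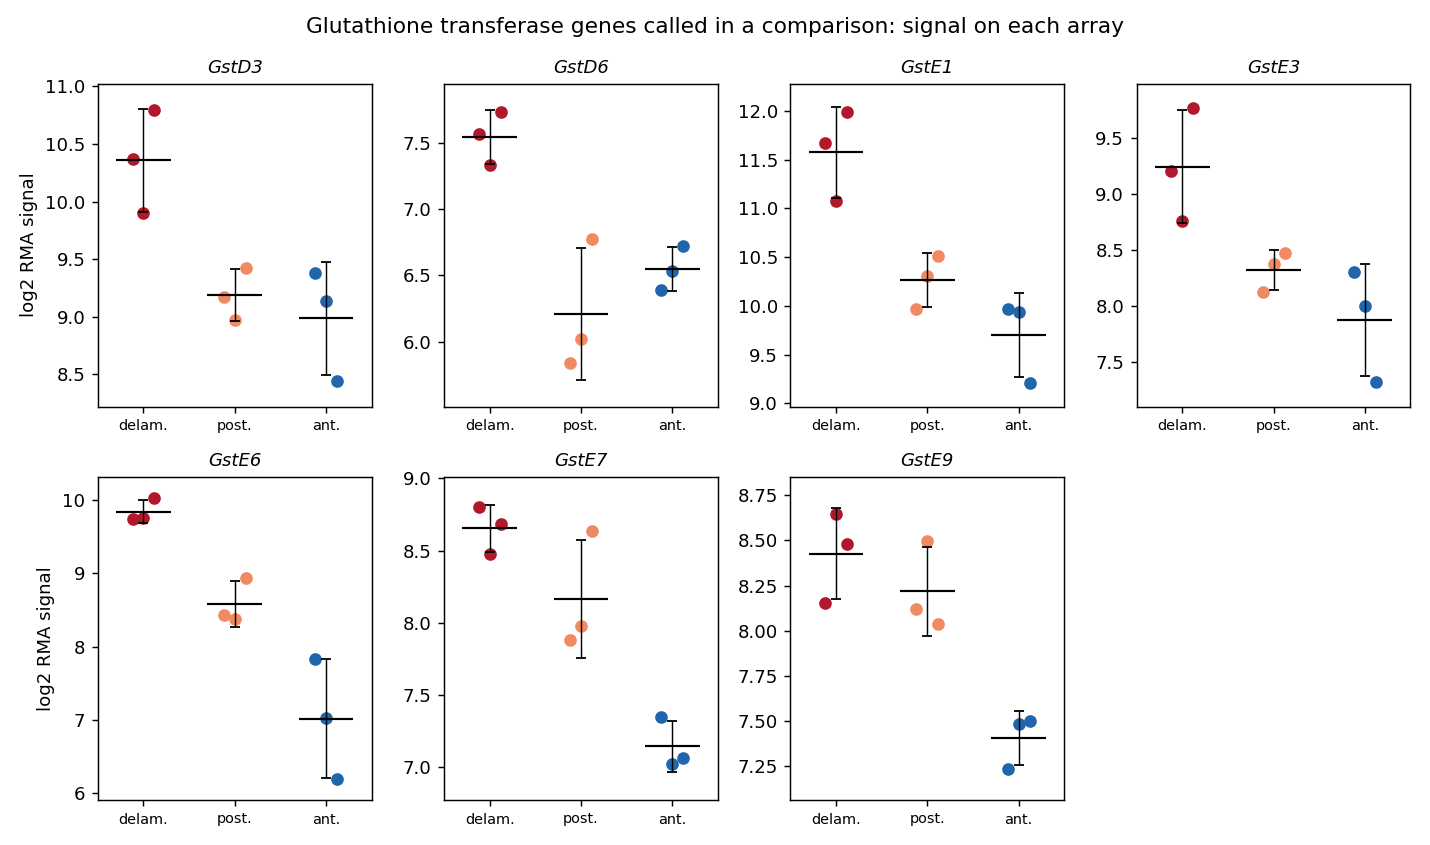
Log2 RMA signal on each array (points) of the 7 members called in at least 1 comparison, with the group mean (long bar) and SD (whiskers), for delaminating, posterior and anterior cells (n = 3 arrays each). GstE6 shows 3 separate groups, GstE7 and GstE9 have anterior cells apart from both others, and GstD3, GstD6, GstE1 and GstE3 have delaminating cells apart from both others.

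The calls in delaminating against anterior cells were unequal in how far they rested on single arrays. GstE1, GstE6 and GstE7 were called in all 19 alternative settings. GstE9 was called in 14 of 19, GstD3 in 11 and GstE3 in 10. The count of members called was 3 without anterior replicate 2 and 3 without delaminating replicate 3, those 3 being GstE1, GstE6 and GstE7, and it was 5 without anterior replicate 3. Without both anterior replicate 3 and delaminating replicate 2, a setting added after the data had been seen, it was 8, with 7 higher and GstT4 lower. GstE9 lost its call also without anterior replicate 1 (adjusted p = 0.0606) and delaminating replicate 2 (0.064). GstD3 and GstE3 lost theirs also without delaminating replicate 1 (0.106 and 0.111) and without any one posterior array (0.052 to 0.0674 for these genes), and GstE3 also without anterior replicate 3 (0.0579).

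The other measured epsilon genes of the run were not called. GstE5 had 6.93, 7.01 and 7.85 in delaminating cells, 6.74, 7.14 and 7.04 in posterior cells, and 6.84, 5.59 and 5.78 in anterior cells. Anterior replicate 1 lay with the posterior arrays, and the other 2 anterior arrays lay below the lower quartile. Its difference was 1.19 ± 0.35 SE in delaminating against anterior cells (limma adjusted p = 0.106, and 0.0223 without anterior replicate 1, where it was called) and 0.90 ± 0.35 in posterior against anterior cells (adjusted p = 0.455). GstE2 had 8.02, 9.41 and 8.03 in delaminating cells, where replicate 2 stood alone. GstE2 otherwise ranged from 7.11 to 8.14 in posterior and from 7.10 to 8.02 in anterior cells. Its difference was 1.01 ± 0.42 in delaminating against anterior cells (adjusted p = 0.265). GstE4 and GstE10 had differences of 0.44 (adjusted p = 0.228) and 0.0036 (adjusted p = 0.995) in the same comparison. The 9 measured genes of the run were all above 0 in delaminating against anterior cells, with a median of 1.19, except that GstE10 was at -0.09 with arrays centred on their medians, and all above 0 against posterior cells, with a median of 0.49. In posterior against anterior cells 8 of 9 were above 0, with a median of 0.56, although GstE2 was below 0 with either other scaling of the arrays.

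The epsilon genes that lie apart from the run were not called. These are GstE11, GstE12, GstE13 and GstE14, whose median was 0.02 in delaminating against anterior cells, -0.07 in delaminating against posterior cells and 0.15 in posterior against anterior cells. GstE12 had signals of 11.01, 10.38 and 11.05 in delaminating cells, 11.27, 11.31 and 11.19 in posterior cells, and 11.34, 11.23 and 10.70 in anterior cells. Every delaminating value lay below every posterior one, with a difference of -0.44 ± 0.23 SE that was not called (limma adjusted p = 0.596). GstE14, known as noppera-bo for its part in ecdysteroid synthesis in the larval prothoracic gland, differed by -0.10 ± 0.21 SE both from anterior cells (limma adjusted p = 0.844) and from posterior cells (adjusted p = 0.983). GstE11 differed by 0.63 in delaminating against anterior cells (limma adjusted p = 0.337) and by 0.68 in posterior against anterior cells with groups apart (adjusted p = 0.526), with 8.53 in anterior replicate 3 against 9.55 and 9.57 in the other anterior arrays.

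Class D had 11 members, 10 of them in an uninterrupted run on chromosome arm 3R, and GstD11 close to it with another gene between. GstD6 was the member called higher in delaminating than in posterior cells. Its signal was 7.56, 7.33 and 7.73 in delaminating cells, 5.84, 6.02 and 6.78 in posterior cells, and 6.39, 6.53 and 6.73 in anterior cells. Delaminating cells were above both others, and posterior replicates 1 and 2 were below their arrays' lower quartiles. The log2 difference of GstD6 from posterior cells was 1.33 ± 0.25 SE (limma adjusted p = 0.0465), and no fold is given because those posterior signals are not shown to be above background. Its difference from anterior cells was 0.99 ± 0.25 (adjusted p = 0.0605). The call against posterior cells was lost without any of anterior replicate 1 (adjusted p = 0.0722), anterior 2 (0.0738), delaminating 1 (0.149), delaminating 2 (0.0977), delaminating 3 (0.206), posterior 1 (0.222) or posterior 2 (0.205), and the number of members called was then 0 each time. Without anterior replicate 3 it was 4, namely GstD3, GstD6, GstE1 and GstE6.

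GstD3 had signals of 10.37, 9.90 and 10.80 in delaminating cells, 9.18, 8.97 and 9.42 in posterior cells, and 9.38, 9.14 and 8.44 in anterior cells. The 3 delaminating arrays were above all 6 others, and posterior and anterior cells overlapped. It was 2.59-fold higher in delaminating than in anterior cells (1.37 ± 0.29 SE, limma adjusted p = 0.0302), and its difference from posterior cells was 1.17 ± 0.29 (adjusted p = 0.134). GstD1, the delta enzyme known for activity on DDT and for its use as an oxidant reporter, had signals of 13.14, 12.84 and 13.28 in delaminating cells, 12.74, 12.80 and 12.92 in posterior cells, and 12.75, 12.76 and 12.56 in anterior cells. GstD1 was not called, with 0.39 ± 0.17 SE in delaminating against anterior cells (95% interval 0.02 to 0.77, limma adjusted p = 0.28) and 0.26 ± 0.17 against posterior cells (interval -0.11 to 0.64, adjusted p = 0.704).

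The remaining delta genes were above 0 in delaminating cells without a call. All 11 class D differences were above 0 in delaminating against posterior cells, with a median of 0.41, and all 11 in delaminating against anterior cells, with a median of 0.50, except that GstD11 was at -0.00061 with arrays centred on their medians. Of posterior against anterior differences 7 of 11 were above 0, with a median of 0.13, although GstD7 was below 0 with centring and GstD2 above 0 with quantile normalization. GstD5 had differences of 0.98 ± 0.30 SE against anterior cells (limma adjusted p = 0.116) and 0.79 ± 0.30 against posterior cells (adjusted p = 0.381), at signals mostly below the lower quartile. GstD9 and GstD10, at the edge of the run beside GstD1, were 0.41 ± 0.16 and 0.45 ± 0.15 above anterior cells (adjusted p = 0.237 and 0.172) but 0.10 and 0.06 from posterior cells. GstD11 had 6.68, 6.91 and 6.95 in delaminating cells, 6.65, 6.23 and 6.43 in posterior cells, and 6.43, 6.08 and 7.74 in anterior cells. Its highest value was that of anterior replicate 3, the array that stood apart, and its difference of -0.31 ± 0.36 in posterior against anterior cells was not called (adjusted p = 0.721).

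**Figure D3:**
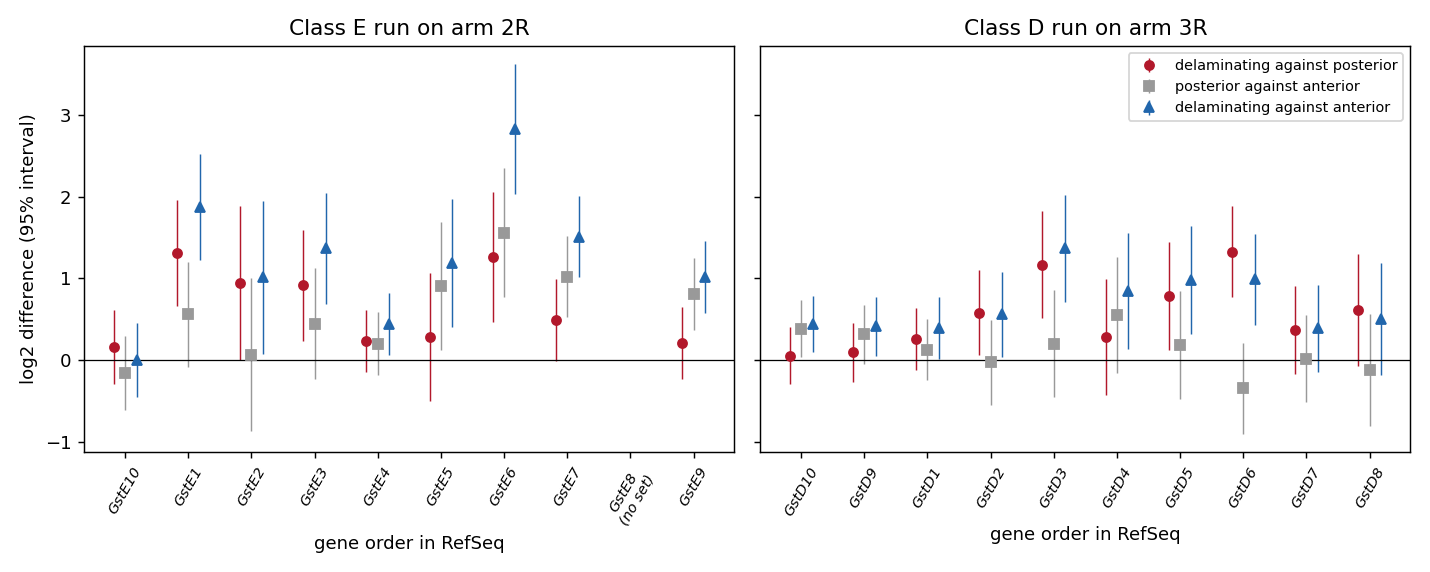
Log2 difference with its 95% interval along the epsilon run on arm 2R and the delta run on arm 3R, in gene order, for the 3 comparisons. GstE6 at 2.82 is the highest point, and GstE10 at 0.0036 in delaminating against anterior cells lies beside GstE1 at 1.87.

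Values along a run were uneven, and differences between neighbours were not tested. GstE10, which borders GstE1, had a difference of 0.0036 in delaminating against anterior cells (95% interval -0.45 to 0.45), where GstE1 had 1.87 (interval 1.23 to 2.52). GstD6 and GstD7 are adjacent as well, with 1.33 (interval 0.77 to 1.88) and 0.37 (interval -0.16 to 0.90) in delaminating against posterior cells. Members of these clusters are related in sequence, and how far a probe set also binds RNA of a neighbour was not tested. All but 2 member probe sets are of the type designed to match 1 transcript. The exceptions are GstS1, whose set shares sequence with other transcripts by its design, and GstZ2, whose set covers alternative transcripts of the gene.

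No member of classes O, S, T and Z was called in any of the 3 comparisons in the main fit. GstT1, a theta class gene, came nearest. Its signal was 10.39, 10.68 and 10.19 in delaminating cells, 9.89, 10.16 and 9.75 in posterior cells, and 9.76, 9.77 and 9.20 in anterior cells. Delaminating cells were above all 6 other arrays. Its difference was 0.84 ± 0.22 SE against anterior cells (limma adjusted p = 0.0682) and 0.49 ± 0.22 against posterior cells (adjusted p = 0.501). GstT1 was called higher than in anterior cells in 4 of the 19 alternative settings, and against posterior cells in 0. GstT2, its neighbour on arm 2R, had 0.41 ± 0.19 against anterior cells (adjusted p = 0.327). GstT3 and GstT4, the theta genes on the X chromosome, were not above 0. GstT4 had 9.67, 9.91 and 9.54 in delaminating cells, 9.998, 9.86 and 9.92 in posterior cells, and 10.24, 10.21 and 9.98 in anterior cells. It was the member with the lowest difference in delaminating against anterior cells, with groups apart (-0.44 ± 0.16, adjusted p = 0.214), and was called lower there in 2 of the 19 settings. GstT3 had -0.11 (adjusted p = 0.88).

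GstS1, the single sigma gene, known for abundance in flight muscle and for conjugating a lipid peroxidation product, had 11.04, 11.52 and 10.80 in delaminating cells, 11.28, 11.72 and 11.40 in posterior cells, and 11.20, 10.92 and 10.93 in anterior cells. Its differences were -0.35 ± 0.22 SE in delaminating against posterior cells (limma adjusted p = 0.691) and 0.45 ± 0.22 in posterior against anterior cells (adjusted p = 0.538). Posterior cells were thus above anterior ones on every array, without a call. Among the omega genes, GstO2 had 11.45, 10.96 and 11.63 in delaminating cells, 11.81, 11.93 and 11.56 in posterior cells, and 11.61, 11.72 and 11.05 in anterior cells. Its groups overlapped in all comparisons, and its difference was -0.42 ± 0.24 in delaminating against posterior cells (adjusted p = 0.643), with -0.31 in its second probe set. GstO1 was 0.58 ± 0.21 above anterior cells in delaminating cells (adjusted p = 0.202), and GstO3 0.23 ± 0.22 (adjusted p = 0.648).

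The zeta genes encode the enzyme family of maleylacetoacetate isomerase, a step of tyrosine breakdown. GstZ1 had 9.20, 9.21 and 8.66 in delaminating cells, 9.24, 9.44 and 9.53 in posterior cells, and 9.43, 9.31 and 9.08 in anterior cells. Every delaminating value lay below every posterior one, with a difference of -0.38 ± 0.20 SE (limma adjusted p = 0.587). GstZ2 had -0.07 ± 0.24 in the same comparison (adjusted p = 0.996). By class, the medians in delaminating against anterior cells were 1.01 for E, 0.50 for D, 0.23 for O, 0.15 for T, 0.11 for S (-0.02 with quantile normalization) and -0.14 for Z. In delaminating against posterior cells they were 0.24 for E, 0.41 for D, -0.09 for O, 0.13 for T, -0.35 for S and -0.23 for Z. With 1 to 4 members in classes O, S, T and Z, these medians describe single genes.

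**Figure D4:**
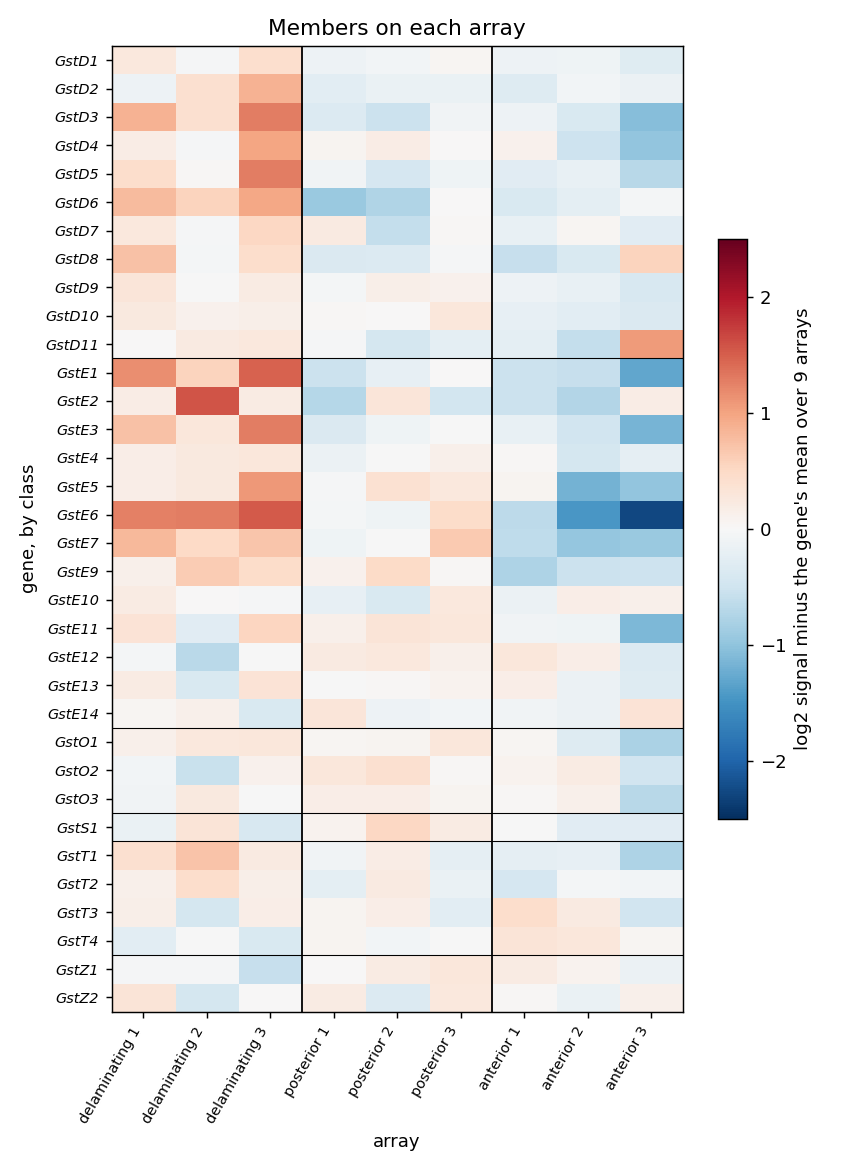
Log2 signal of each member on each array minus the gene's own mean over the 9 arrays, with rows by class and columns by group (delaminating, posterior, anterior). The epsilon rows from GstE1 to GstE9 and most delta rows are mainly red on the delaminating arrays, and anterior replicate 3 is the bluest column for GstE6 and GstE1 but red for GstD11.

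Array by array, the median signal over the 34 members was 9.21, 9.21 and 9.34 in delaminating cells, 8.84, 8.73 and 8.98 in posterior cells, and 8.74, 8.46 and 8.29 in anterior cells. The lowest was anterior replicate 3, whose median over all genes was also the lowest. Within the delaminating group, replicate 3 was highest for GstD1, GstD3, GstD5, GstD6, GstE1, GstE3 and GstE6, and replicate 2 was lowest for GstD1, GstD3, GstD5, GstD6, GstE1 and GstE3. Replicate 2 was the highest of its group for GstE2, GstE9, GstS1 and GstT1.

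Some markers of other cell types, but not all, differed between the groups as well. The summed signal of 9 hemocyte markers, on the log2 scale, ranged from 10.97 to 13.12 in delaminating, 10.21 to 11.26 in posterior and 10.44 to 12.08 in anterior cells, and limma called 0 of the 9 in any comparison. In delaminating against posterior cells 8 of the 9 were above 0, with a median of 1.33. At limma's unadjusted p under 0.05, 3 of the 9 were higher there, and 636 of the 11982 genes. Against anterior cells 9 of 9 were above 0, with a median of 0.70, and 2 were higher at that threshold, where 1294 of all genes were. Delaminating replicate 2 held the top summed value, with the blood cell gene Hml at 10.39 against 8.44 and 7.52 in the other delaminating arrays. The hemocyte transcription factor gene srp ranged from 4.31 to 7.35 in delaminating, 3.30 to 4.55 in posterior and 4.15 to 5.04 in anterior cells. Without delaminating replicate 2 the members called in delaminating against anterior cells numbered 5, with GstE6 at 2.86 and GstE1 at 2.12. In delaminating against posterior cells 0 members were called without that array. The 5 measured muscle precursor markers of 8 summed to 9.83 to 10.98 in delaminating, 11.08 to 11.33 in posterior and 13.51 to 13.84 in anterior cells, and all 5 were called lower in delaminating than in anterior cells. The 4 measured fat body markers of 8 summed to 8.40 to 8.49, 8.41 to 8.63 and 8.54 to 9.34 in the same order, with 0 called. Of 5 measured tracheal markers of 6, 3 were above 0 in delaminating against anterior cells. Gasp and serp were called higher there, while btl and pio were below 0. The tracheal list summed to 13.72 to 14.21 in delaminating, 14.02 to 14.07 in posterior and 13.36 to 13.66 in anterior cells. All 4 glial markers were measured, and they summed to 11.05 to 11.22, 10.29 to 10.34 and 9.06 to 10.07 in that order. Of these moody was called higher in delaminating than in anterior cells, while the glial factor gene repo lay between 4.98 and 5.75 on all arrays, below their lower quartiles. The 3 measured neuronal markers of 4 summed to 11.08 to 11.32, 11.13 to 11.43 and 11.30 to 11.36, and the 5 measured wing epithelium markers of 6 to 13.45 to 13.74, 13.79 to 13.99 and 13.39 to 13.81, with 0 called in either list. The part of these cell types in the values of the family was not tested beyond leaving arrays out.

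Genes that make and use glutathione, and those that regulate or accompany the transferases, were set beside the family, with 55 of 68 listed genes measured. Limma called 3 of the 55 higher and 0 lower in delaminating against anterior cells, 1 higher and 0 lower in delaminating against posterior cells, and 0 in posterior against anterior cells. Of all genes 2.4% were called higher in delaminating against anterior cells. Those called in either direction were 0.801% in delaminating against posterior and 0.576% in posterior against anterior cells. The medians of the 55 were 0.11, 0.0045 and 0.17 in the order of the counts, where all genes had 0.05, -0.0031 and 0.09. The 1 called in both delaminating comparisons was Men, the malic enzyme that supplies NADPH. Men had 10.89, 10.29 and 10.99 in delaminating cells, 9.22, 9.32 and 9.78 in posterior cells, and 9.21, 9.09 and 8.84 in anterior cells. All delaminating values were above all others. Men was 3.19-fold higher in delaminating than in anterior cells (1.67 ± 0.23 SE, limma adjusted p = 0.00423). Its call against posterior cells (1.28 ± 0.23, adjusted p = 0.0441) was lost without any array but anterior replicate 3 and delaminating replicate 2, with adjusted p up to 0.222. Of the 4 genes listed for NADPH supply only Men and Idh were measured, and Idh was not called. Idh had 11.93, 11.84 and 11.84 in delaminating cells, 12.06, 12.21 and 11.93 in posterior cells, and 12.01, 11.88 and 11.64 in anterior cells.

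Among 5 export pump genes, 2 were called higher in delaminating than in anterior cells. MRP, which encodes an ABC transporter of the family that exports glutathione conjugates, had 9.95, 10.61 and 9.87 in delaminating cells, 9.08, 9.48 and 9.35 in posterior cells, and 9.11, 8.78 and 8.14 in anterior cells. It was 2.76-fold higher than in anterior cells (1.46 ± 0.28 SE, limma adjusted p = 0.0204). The call was lost without anterior replicate 2 (0.053), delaminating 1 (0.0533) or delaminating 2 (0.0635). Mdr49, of the P-glycoprotein family, had 10.18, 9.96 and 9.98 in delaminating cells, 9.80, 9.73 and 9.89 in posterior cells, and 9.50, 9.27 and 8.79 in anterior cells, with the 3 groups apart. It was 1.81-fold higher in delaminating than in anterior cells (0.86 ± 0.20 SE, adjusted p = 0.0448), a call lost without any single array but anterior replicates 1 and 3.

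Enzymes of glutathione synthesis and direct antioxidant enzymes were not called. Limma called 0 of 10 measured genes of glutathione synthesis and use in each comparison, with 2 higher at an unadjusted p under 0.05 in delaminating against anterior and 2 in delaminating against posterior cells. Of all 11982 genes 1294 were higher and 691 lower at that threshold in delaminating against anterior cells. In delaminating against posterior cells 636 were higher and 560 lower. Gclc, the catalytic subunit of glutamate-cysteine ligase that limits glutathione synthesis, had 8.97, 9.14 and 8.97 in delaminating cells, 8.29, 8.55 and 8.28 in posterior cells, and 8.66, 8.41 and 8.03 in anterior cells. Delaminating cells were above all others, at 0.66 ± 0.19 SE against anterior (adjusted p = 0.106) and 0.65 ± 0.19 against posterior cells (adjusted p = 0.229). Of 18 measured antioxidant enzyme genes 0 were called in each comparison. Their median was 0.02 in delaminating against anterior cells, with 2 higher and 1 lower at an unadjusted p under 0.05. In delaminating against posterior cells their median was -0.0015, with 1 higher and 2 lower at that threshold. MtnA, a metallothionein, had 0.98 ± 0.26 in delaminating against anterior cells (limma adjusted p = 0.0711). Sod3, an extracellular superoxide dismutase, had -0.86 ± 0.21 in delaminating against posterior cells (adjusted p = 0.123).

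The regulators and the other detoxification genes were not called either. Of 5 regulators, cnc, which encodes CncC, differed by 0.61 ± 0.27 SE in delaminating against anterior cells (limma adjusted p = 0.291), and Keap1, its inhibitor, by 0.78 ± 0.34 (adjusted p = 0.28), the 2 of 5 with an unadjusted p under 0.05. Both were lowest in anterior replicate 3, where cnc had 7.87 against 8.91 and 8.85 in the other anterior arrays, and Keap1 7.91 against 8.97 and 8.63. Delaminating and posterior values overlapped for both, with 9.16, 9.28 and 9.01 against 9.23, 9.15 and 8.95 for cnc. The 5 regulators had a median of 0.04 in delaminating against posterior cells, with 0 called. These are transcript levels and do not measure CncC activity. The oxidant producing enzymes Nox and Duox differed by 0.04 ± 0.23 and 0.15 ± 0.18 in delaminating against anterior cells (limma adjusted p = 0.95 and 0.713). Limma called 0 of 13 measured phase I and phase II genes in each comparison, with 2 higher and 2 lower at an unadjusted p under 0.05 in delaminating against anterior cells. Of all 11982 genes 1294 were higher and 691 lower at that threshold in the same comparison. Ugt35A1, a UDP-glycosyltransferase gene, had 0.74 ± 0.18 there (adjusted p = 0.0521), and the cytochrome P450 gene Cyp4e2 had -0.91 ± 0.18 in delaminating against posterior cells (adjusted p = 0.0551).

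**Figure D5:**
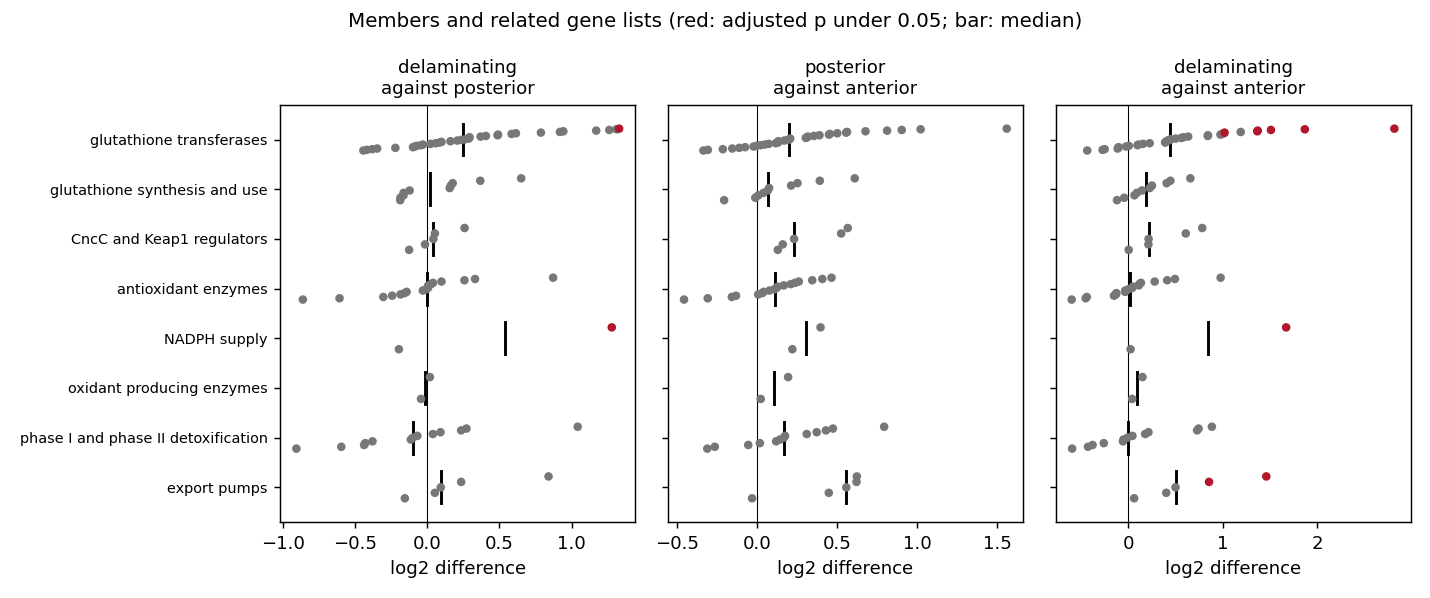
Log2 differences of the 34 members and of the measured genes of 7 related lists (points) in the 3 comparisons, with the median of each list (bar) and red for an adjusted p under 0.05. In delaminating against anterior cells 6 members, Men, MRP and Mdr49 are red, and the family's median (0.45) lies between those of NADPH supply (0.85, 2 genes) and export pumps (0.50) above it and those of lists such as synthesis (0.18) and antioxidant enzymes (0.02) below it.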

How the data were processed

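RNA of 9 samples was amplified as a whole transcriptome, labelled with biotin and hybridised to Affymetrix arrays. The values the authors deposited are log2 signals, and RMA is the tool that the submitters' processing notes name, whose version is not given in the sources used here. Of 18952 probe sets, 183 controls were left out, 13647 of the rest had 1 gene symbol in the platform table, and the 402 with several and 4720 with none were not tested by gene. Symbols and gene order came from the RefSeq table of assembly Release 6 plus ISO1 MT, which matched all 34 members. Where 1094 genes had several probe sets, the brightest was used.

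All 9 arrays were fitted with limma 3.58.1 in R 4.3.3, with a mean per group, moderated variances, two-sided tests and Benjamini-Hochberg adjustment over 11982 genes. A called gene had an adjusted p under 0.05, and folds are powers of 2. The fit was tested on simulated data with planted differences, independent normal noise and variances shuffled among genes. That simulation held no array that stood apart and no admixed cells, so it does not cover those features of these data. Intervals use 95% of the moderated distribution, and the number of arrays limits the precision. Pairs of replicates with the same number had deviations that correlated between -0.12 and 0.18. Pairs with different numbers were not set beside them, so this range does not show whether the numbers mark pairs. The main fit did not take the numbers as pairs, and the replicate block did. Alternatives were the replicate block, scalings, filters, probe set summaries, variance models and each array left out.

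The members and lists were chosen with earlier results of these data known. Described in full were called members, the 3 highest and 3 lowest of each comparison, the brightest of each class, GstD1 and GstS1. Related lists gave up to 4 called genes, or the gene with the smallest p. Others, among them GstD5, GstD9, GstD10, GstE2, GstE11, GstE14, cnc, Nox, MtnA, Ugt35A1 and Hml, were chosen after their values were seen. Figures were drawn with matplotlib 3.10.9.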

Additional observations from a re-analysis of the deposited data

How the results depend on the processing

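The family's median log2 difference moved by less than the spread between arrays in all 19 settings of each comparison. Over single arrays left out it ranged from 0.17 to 0.31 in delaminating against posterior, 0.16 to 0.31 in posterior against anterior and 0.42 to 0.52 in delaminating against anterior cells. With arrays centred on their medians these medians were 0.26, 0.09 and 0.35, and with quantile normalization again 0.23, 0.12 and 0.39. The members called in delaminating against posterior cells numbered 1, and 0 to 4 with single arrays left out. They were 2 without the dimmest 25% of genes, 2 with an intensity trend and robust variances, 6 with array weights and 5 without anterior replicate 3 and delaminating replicate 2. With those 2 groups alone in the fit 1 was called, GstE6 in place of GstD6. In posterior against anterior cells the count was 0, with 0 to 1 over single arrays left out and 3 with array weights. In delaminating against anterior cells it was 6, with 3 to 6 over single arrays left out, 3 with those groups alone in the fit and 18 with array weights, of which 17 were higher, and 8 without the 2 arrays named. It was also 8 without the dimmest 25% of genes and 8 with an intensity trend and robust variances, with GstT1 among them both times. Over all genes the calls were 96, 69 and 458 in the 3 comparisons. In delaminating against posterior cells they were 17 to 281 over single arrays left out, 185 with those groups alone, 749 with array weights and 270 without the 2 arrays named. In posterior against anterior cells they were 35 to 88 and 427 with array weights, and in delaminating against anterior cells 212 to 567, 180 with those groups alone, 1974 with array weights and 621 without the 2 arrays named. The 458 split into 287 higher and 171 lower, against 269 and 245 with centring and 266 and 250 with quantile normalization. The cause of these moves was not tested, and a fit without an array also has fewer samples. With a replicate block, 1, 0 and 6 members were called, of which GstD3 and GstE3 were replaced by GstD6 and GstT1 in delaminating against anterior cells (adjusted p = 0.057 and 0.0741 for the calls lost). The block also ended the calls of Men in delaminating against posterior cells (adjusted p = 0.069) and of Mdr49 in delaminating against anterior cells (0.0706). Of the 102 differences of members 28 changed sign in some setting, none of them called, all at 0.31 or less in size. Signals below the arrays' lower quartiles limit what GstD2 and GstD5 show.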

Other observations

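The nearest measured genes around the delta and epsilon runs, chosen after the members' values were seen, were read in the same fit. Beside the epsilon run, Idgf5 and BomS6 on one side had log2 differences of -0.12 and 0.03 in delaminating against anterior cells (limma adjusted p = 0.834 and 0.958). On the other side imd, which encodes the adaptor of an immune pathway, had 0.93 ± 0.26 SE (adjusted p = 0.0964) and Dp1 had 0.48 (adjusted p = 0.424). Beside the delta run, Tim17a1 had 0.43 ± 0.17 (adjusted p = 0.249) and Sol1 had 0.31 (adjusted p = 0.573). CG4115, the gene beyond Tim17a1, was 2.4-fold higher in delaminating than in anterior cells (means ± SD of 10.38 ± 0.18 against 9.12 ± 0.30, with n = 3 in each group and a limma adjusted p of 0.009). It is not a glutathione transferase by symbol, and its difference from posterior cells was 0.95 ± 0.21 SE (adjusted p = 0.0807).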
